A study of Homo sapiens with 24 samples.

Results

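Of the 20031 named genes on the array, 7 were followed as a readout of the response to steroid: NR3C1, FKBP5, TSC22D3, DDIT4, SGK1, PER1 and ZBTB16. They were chosen by name, through every probe annotated to those symbols, which gave 18 of 30080 probes with a single symbol. Of the 7 genes, 5 had a probe bright enough to test (5 of 11494 genes tested). Glucocorticoids such as hydrocortisone bind the glucocorticoid receptor, the product of NR3C1, which is held by chaperones of the HSP90 family until the steroid reaches it. The bound receptor enters the nucleus and raises some genes and represses others, among them many inflammatory genes in lung epithelium. FKBP5 encodes a co-chaperone that lowers the receptor's affinity for steroid, a negative feedback. TSC22D3 encodes GILZ, an anti-inflammatory regulator, PER1 a component of the circadian clock and ZBTB16 a transcriptional repressor. DDIT4 encodes REDD1, an inhibitor of the growth kinase mTORC1 that hypoxia and cell stress also raise, and SGK1 a kinase that controls sodium transport.

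The cells measured were H838, a lung cancer line (human, non-small cell), in wells below a porous filter that carried either HPAEC, primary human endothelial cells, or H838 itself. The H838 layer was scratched and RNA was taken at 9 times between 0.5 and 24 h, and from unscratched wells at 0 h, on 24 bead arrays, 12 beside HPAEC and 12 beside H838. The 0 and 24 h groups had 2 arrays in each co-culture and the other times 1. Per the labels' protocols both co-cultures were kept in endothelial growth medium that contains hydrocortisone, also before the scratch, so the arrays hold no steroid-free group and compare times and neighbours, not steroid with no steroid. No unscratched well was sampled after 0 h, so the scratch and time in culture cannot be told apart. Nothing in the labels tells whether the duplicates are separate cultures, and p-values may measure technical spread only. Both samples labelled HPAEC replicate 2 name H838 as the second cell line in 1 label and HPAEC in the title and the co-culture label, and were taken as HPAEC. H838 is a single line, and 1 endothelial source is named.

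The arrays had 15488 to 17555 detected probes and a median raw intensity of 108.8 to 130. EPCAM and the lung factor NKX2-1 were detected on all 24 arrays and KRT18 on 21. The other epithelial and lung markers were mostly undetected: CDH1 on 4 arrays, KRT8 and NAPSA on 2 each and KRT19 on 1. KRT7, SFTPB, SFTPC and SCGB1A1 were detected on 0. Of 10 endothelial markers, 8 (VWF, CDH5, KDR, TIE1, EMCN, CLEC14A, ESAM and ROBO4) were detected on 0 arrays, TEK on 3 and PECAM1 on 1. The summed raw intensity of the 11 endothelial probes was 958.6 to 1084 beside HPAEC and 944.7 to 1097 beside H838. The arrays lay on 2 chips, and chip nearly coincided with co-culture: beyond 0, 0.5 and 24 h, every HPAEC array was on chip 1 and every H838 array on chip 2. Chip was therefore a term of every model.

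The 250 bases before the start are shown for the 3 genes that passed the test of change over time. Their courses were not alike, with pairwise Pearson r between -0.50 and 0.39 over the 20 co-culture and time means. Sequences are RefSeq's (GRCh38.p14), 5′ to 3′ on the gene's strand, with capitals, on either strand, at the core ACGTG of E-boxes and hypoxia response elements, at TGACG from the cyclic AMP response element, at the box CCAAT and at the box TATAAA. TSC22D3 and FKBP5 have several starts, and the window with the most matches is given. The windows lie at chr10:72273674-72273923 (plus strand) for DDIT4, chrX:107717063-107717312 (minus strand) for TSC22D3 and chr6:35688916-35689165 (minus strand) for FKBP5.
DDIT4: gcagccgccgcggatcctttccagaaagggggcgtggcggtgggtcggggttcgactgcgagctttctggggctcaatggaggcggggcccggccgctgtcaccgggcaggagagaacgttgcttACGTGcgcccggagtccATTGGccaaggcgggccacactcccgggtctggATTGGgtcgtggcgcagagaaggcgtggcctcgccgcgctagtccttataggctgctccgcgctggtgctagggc
TSC22D3: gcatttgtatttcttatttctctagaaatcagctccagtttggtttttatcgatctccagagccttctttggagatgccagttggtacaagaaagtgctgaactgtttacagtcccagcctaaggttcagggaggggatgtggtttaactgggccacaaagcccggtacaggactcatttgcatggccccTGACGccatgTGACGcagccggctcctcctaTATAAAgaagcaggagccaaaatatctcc
FKBP5: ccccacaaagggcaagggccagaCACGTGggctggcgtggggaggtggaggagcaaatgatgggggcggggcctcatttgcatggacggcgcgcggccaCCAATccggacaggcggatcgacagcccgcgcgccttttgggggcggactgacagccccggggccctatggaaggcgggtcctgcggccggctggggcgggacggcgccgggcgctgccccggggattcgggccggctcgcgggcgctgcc
The matches differ between the 3. DDIT4 has ACGTG at position -125, counted from the start, and CCAAT on the other strand, read as ATTGG, at -108 and -75. TSC22D3 has TGACG at -60 and -50 and TATAAA at -29. FKBP5 has ACGTG on both strands, overlapping, at -227 and -226, and CCAAT at -151. Over 18 windows of 6 of the 7 genes (ZBTB16 was not matched), the full glucocorticoid response element and its half-site AGAACA were found in 0, and they occur in 0.327% and 12.4% of 35116 such windows in all. ACGTG was in 4 windows (18.5% of all windows hold it), TGACG in 4 (21.2%), CCAAT in 6 (32.0%) and TATAAA in 5 (10.7%). A match describes letters, not a site in use, and 0 matches says only that these letters are not in these windows.

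Detection separated the 7 genes first. Of the 7 genes, 5 were measured in these cells and 2 were not (the plot of detection by probe). PER1, with 1 probe, was detected on 0 of 24 arrays, at raw intensities of 70.1 to 104.1 and detection p-values of 0.287 to 0.913. ZBTB16, with 3 probes, was also detected on 0 arrays, and its lowest detection p-value on any array was 0.0104. For both genes the arrays give a bound and no time course, and nothing can be said about their response.

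**Figure D1:**
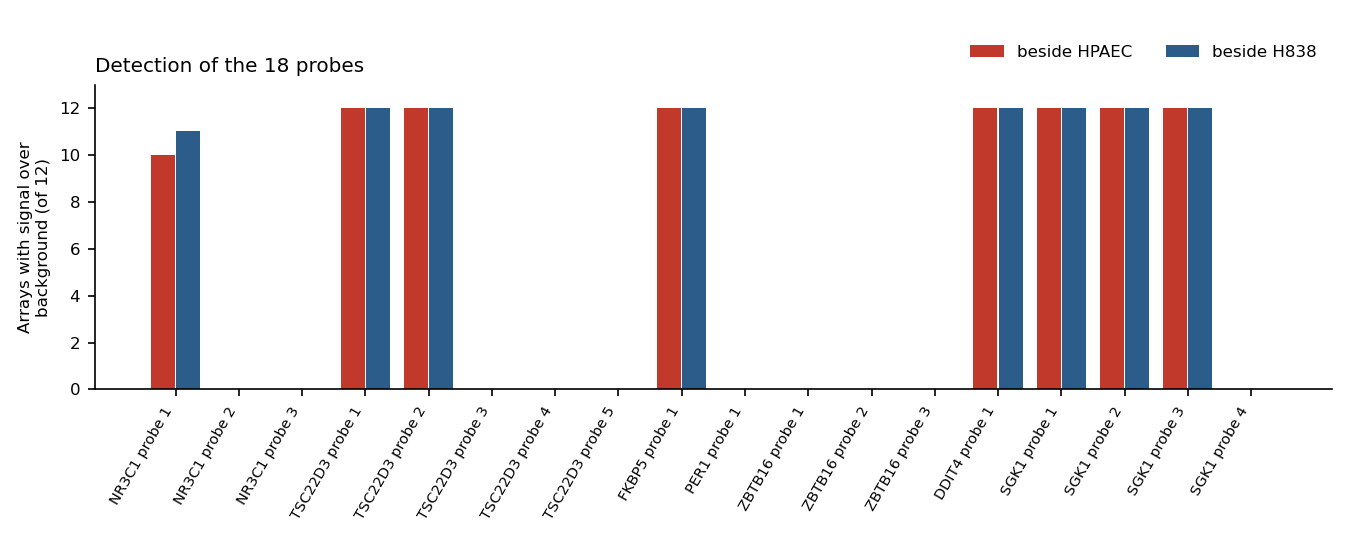
Number of arrays, of 12 beside HPAEC and 12 beside H838, on which each of the 18 probes had a detection p-value below 0.01. The probes of PER1 and ZBTB16 reached 0 arrays, and the receptor's brightest probe reached 10 and 11.

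Among the measured genes, FKBP5 and DDIT4 had 1 probe each, detected on every array. TSC22D3 had 2 detected probes of 5, and SGK1 had 3 of 4, each on all 24 arrays. NR3C1 had 3 probes, annotated to different transcripts, so its values need not stand for every transcript of the gene. Of these 3 probes 1 was detected, near the limit of detection. It was detected on 10 arrays beside HPAEC and 11 beside H838, and missed on HPAEC 0 h replicate 1, HPAEC 2 h and H838 0 h replicate 2, at detection p-values of 0.0417, 0.0391 and 0.013.

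The receptor, NR3C1, was dim, and it passed as higher than at 0 h only in the late window and at 24 h. At 3 h NR3C1 was 0.41 log2 above 0 h, against 0.33 at 10 h and 0.35 at 15 h, and the windows were not tested against each other. Its log2 intensities beside HPAEC were 5.82 and 6.33 at 0 h, then 6.05, 6.54, 5.73, 6.58, 6.21, 6.32, 6.31 and 6.33 from 0.5 to 15 h, and 6.36 and 6.42 at 24 h. Beside H838 they were 6.29 and 5.86 at 0 h, then 6.26, 6.20, 5.97, 6.40, 6.34, 6.32, 6.49 and 6.53, and 6.54 and 6.98 at 24 h. The 24 h arrays lay above all 0 h arrays in both co-cultures, but the duplicates at 0 h differed from each other by as much as 0.51, which is more than any step between neighbouring times when the times are ordered by level. Over 10 to 24 h NR3C1 was 0.40 ± 0.13 (SE) log2 above 0 h, 1.32-fold, with a 95% interval of 0.13 to 0.66 and a limma adjusted p of 0.0428. That call was lost without HPAEC 0 h replicate 1 (0.32) or without H838 0 h replicate 2 (0.30), the 2 unscratched arrays on which the probe was not detected. The call held in 13 of 26 alternative settings, and the change was 0.21 with normexp background correction without detection p-values and also 0.21 with the authors' normalized values. Its size thus depends on the processing. The normexp setting also used an offset of 50 in place of 16, and the authors' scaling is unstated. Which step changed the size was not tested.

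FKBP5, the co-chaperone, moved little. Its log2 intensities beside HPAEC were 10.62 and 10.52 at 0 h, then 10.38, 10.35, 10.52, 10.59, 10.71, 10.81, 10.71 and 10.69, and 10.73 and 10.68 at 24 h, a span of 1.37-fold. Beside H838 they were 10.63 and 10.56 at 0 h, then 10.64, 10.54, 10.26, 10.86, 10.90, 10.93, 11.02 and 10.57, and 10.76 and 10.79 at 24 h, a span of 1.69-fold. The lowest values fell at 1 h beside HPAEC and at 2 h beside H838, and the highest at 5 and 10 h. Ordered by the mean of both co-cultures, the times ran 2, 1, 0.5, 0, 15, 3, 24, 4, 10 and 5 h from low to high, and 0 of the 9 steps between neighbours exceeded the largest difference between duplicates, 0.10. The gene passed the test for any change over time, but none of its 3 windows passed alone. Its 3 to 5 h value was 0.22 ± 0.08 above 0 h (adjusted p = 0.0696 in limma).

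TSC22D3 lay higher beside HPAEC than beside H838 from 0 to 2 h on both of its detected probes. On the brighter probe its log2 intensities beside HPAEC were 8.75 and 8.97 at 0 h, then 9.01, 9.20, 8.94, 8.49, 8.37, 8.30, 8.28 and 7.98, and 8.80 and 8.83 at 24 h. Beside H838 they were 8.27 and 8.28 at 0 h, then 8.34, 8.33, 8.34, 7.95, 8.32, 8.17, 8.19 and 7.997, and 8.81 and 8.82 at 24 h. From 0 to 3 h each array beside HPAEC lay above the array beside H838 of the same time, whereas at 24 h the H838 arrays lay between the HPAEC arrays. The span was 2.34-fold beside HPAEC, between 15 and 1 h, and 1.83-fold beside H838, between 3 and 24 h. The difference of 15 h from 0 h, -0.58 ± 0.17 over both co-cultures, did not pass (adjusted p = 0.0525 in limma). Its second detected probe had a Pearson r of 0.88 with the first over the 20 co-culture and time points, which share arrays, and passed the time test too (adjusted p = 0.0316 over all kept probes in limma).

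DDIT4 had the widest swing of the 5 measured genes. Its log2 intensities beside HPAEC were 10.13 and 10.05 at 0 h, then 11.10 at 0.5 h, 10.58 at 1 h, 9.67 at 2 h, 8.78 at 3 h, 9.07 at 4 h, 9.14 at 5 h, 10.74 at 10 h, 10.59 at 15 h, and 11.09 and 11.03 at 24 h. Beside H838 they were 9.66 and 9.58 at 0 h, then 10.32, 9.83, 9.18, 8.83, 9.54, 9.23, 10.49 and 10.41, and 10.66 and 10.80 at 24 h. In both co-cultures the values at 0.5 and 1 h lay above both unscratched arrays, the values at 2, 3, 4 and 5 h lay below both, and those at 10, 15 and 24 h lay above both. The trough was at 3 h on either side, and the span was 4.99-fold beside HPAEC and 3.92-fold beside H838. Ordered by the mean of both co-cultures, the times ran 3, 5, 4, 2, 0, 1, 15, 10, 0.5 and 24 h from low to high, and 5 of the 9 steps exceeded the largest difference between duplicates, 0.14. The steps between 5 and 4 h, 4 and 2 h, 15 and 10 h, and 10 and 0.5 h did not.

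SGK1 passed no test of change over time. The probe that stands for it ranged from 7.50 to 7.73 log2 beside HPAEC, with a median of 7.65, and from 7.40 to 8.10 beside H838, with a median of 7.71. The 2 co-cultures overlapped, and the H838 duplicates at 24 h, 7.83 and 7.40, differed by 0.43, more than any step between neighbouring times when ordered by level. Its 3 detected probes did not follow one another closely, with Pearson r of 0.17, 0.40 and 0.42 over the 20 points. In bulk samples of this kind, fewer cells expressing a gene and less RNA per cell cannot be told apart.

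**Figure D2:**
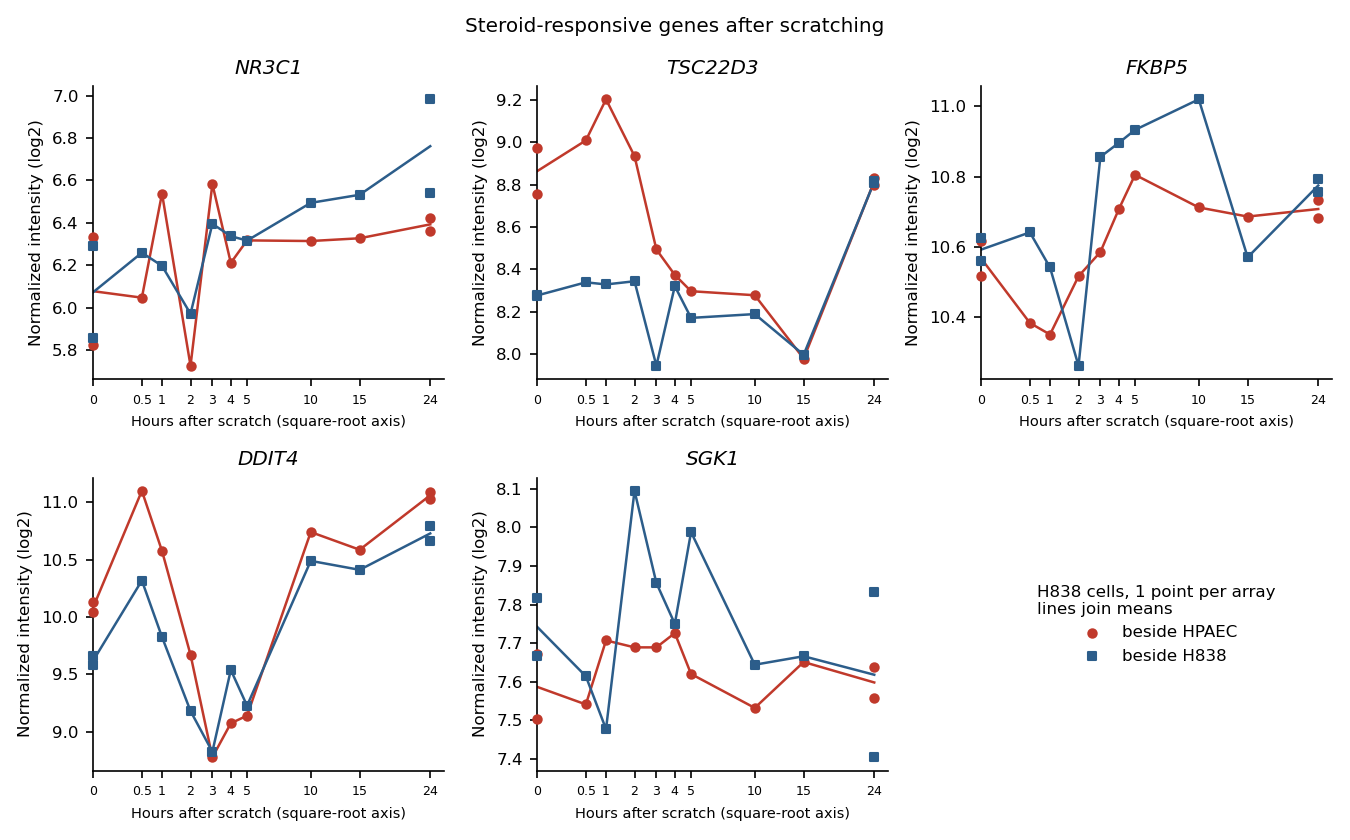
Log2 normalized intensity of the 5 measured genes against hours after the scratch (square-root time axis, a separate intensity scale for each gene), with 1 point per array, HPAEC co-culture as red circles and H838 co-culture as blue squares, and lines through the means. DDIT4 falls to its lowest values at 3 h in both co-cultures, and TSC22D3, on its brighter probe, is higher beside HPAEC from 0 to 3 h.

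Whether the genes changed after the scratch was tested with all 24 arrays in 1 model of time, co-culture and chip. Of the 5 genes, 3 changed over the 9 times: DDIT4 (adjusted p = 9e-06 in limma), TSC22D3 (0.0232) and FKBP5 (0.0304), while NR3C1 (0.0941) and SGK1 (0.523) did not pass. Of all genes tested, 22.9% passed. Under median scaling TSC22D3 and FKBP5 no longer passed (adjusted p = 0.081 and 0.0514), nor did they without the 24 h arrays (0.0701 and 0.103). TSC22D3 was also lost without the 15 h arrays (0.0663), and FKBP5 without the 5 h arrays (0.057), HPAEC 24 h replicate 1 (0.0523) or HPAEC 0 h replicate 2 (0.0534). The times were then averaged in 3 windows against 0 h. At 0.5 to 2 h, 0 of the 5 passed, against 0.461% of all genes. DDIT4 was 0.28 ± 0.14 above 0 h there (adjusted p = 0.45), its 3 values in each co-culture lying on both sides of 0 h. At 0.5 h alone it was 0.92 ± 0.20 above, 1.89-fold (adjusted p = 0.0754 in limma), where 0.244% of all genes passed.

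At 3 to 5 h DDIT4 was the 1 gene of the 5 called, and it fell, and at 10 to 24 h DDIT4 and NR3C1 were called higher than at 0 h. DDIT4 fell to 0.592-fold of 0 h (log2 change -0.76 ± 0.14, 95% interval -1.05 to -0.46, adjusted p = 0.00182 in limma), and 7.28% of all genes were called lower in that window. The other 4 did not pass: FKBP5 was at 0.22 (adjusted p = 0.0696), TSC22D3 at -0.30 (0.126), NR3C1 at 0.29 (0.158) and SGK1 at 0.11 (0.495). The late rise of DDIT4 was 0.80 ± 0.13, 1.75-fold (95% interval 0.52 to 1.09, adjusted p = 0.00112), and 7.93% of all genes were called higher. Without the 24 h arrays TSC22D3 was -0.46 in the late window and passed (adjusted p = 0.0406), against -0.24 with them (adjusted p = 0.214). On chip 1 or chip 2 alone, with fewer arrays, neither change of DDIT4 passed. Of all genes, 0 passed at 3 to 5 h on either chip, and 4 on chip 1 and 0 on chip 2 at 10 to 24 h. The median change of the 5 was 0.05 at 0.5 to 2 h, 0.11 at 3 to 5 h and 0.17 at 10 to 24 h, against -0.01, -0.01 and 0.01 over all genes (log2).

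Single times gave the same course for DDIT4. It fell by 1.05 ± 0.19 at 3 h, to 0.483-fold (adjusted p = 0.0032 in limma, 2.62% of genes lower), and at 5 h to 0.629-fold (adjusted p = 0.0368, 3.7% lower). It was 1.69-fold higher at 10 h (adjusted p = 0.0166, 5.48% of genes higher) and 1.56-fold higher at 15 h (0.0483, 3.34% higher). At 24 h it was 2.01-fold higher (adjusted p = 0.000768, 5.82% higher), and NR3C1, 1.42-fold higher, also passed there (adjusted p = 0.0339). At 1, 2 and 4 h DDIT4 did not pass, with adjusted p-values of 0.605, 0.343 and 0.0965.

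**Figure D3:**
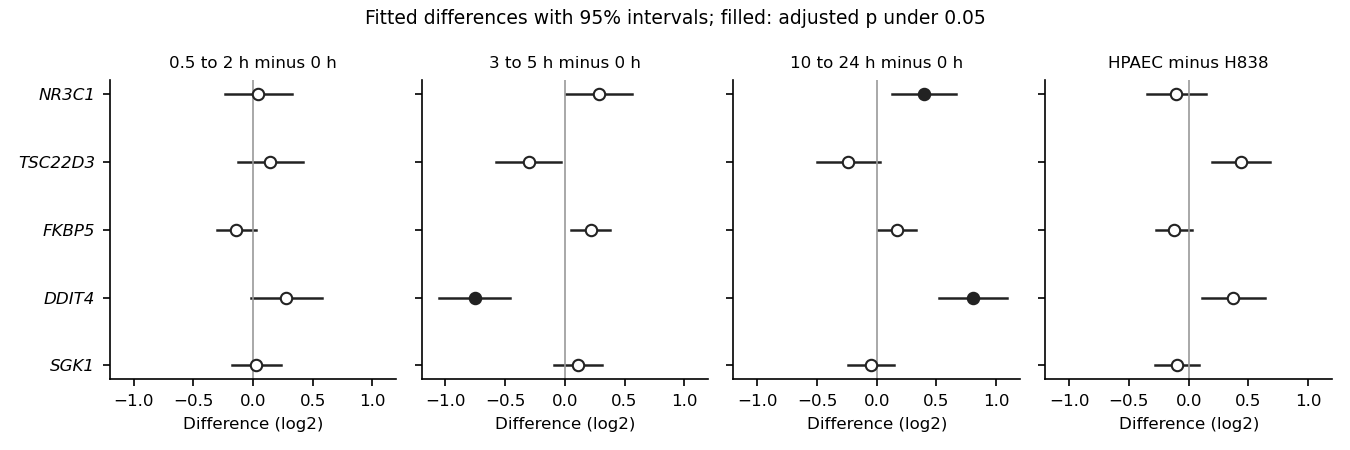
Fitted log2 changes of the 5 measured genes with 95% intervals, in panels for 0.5 to 2 h, 3 to 5 h and 10 to 24 h against 0 h and for HPAEC against H838 co-culture, with filled points where the limma adjusted p is below 0.05. DDIT4 is filled at 3 to 5 h (-0.76) and at 10 to 24 h (0.80), NR3C1 at 10 to 24 h (0.40), and no gene in the co-culture panel.

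The duplicated times give the only comparison with replicates in every group. DDIT4 was 11.06 ± 0.04 at 24 h and 10.09 ± 0.06 at 0 h beside HPAEC, and 10.73 ± 0.10 at 24 h and 9.62 ± 0.06 at 0 h beside H838 (log2, SD, n = 2 each). The groups did not overlap in either co-culture. It rose by 1.06 ± 0.07 (SE) over both, 2.08-fold (95% interval 0.90 to 1.22, adjusted p = 0.0043 in limma), and was the 1 gene of the 5 called, against 4.86% of all genes called higher. It rose beside HPAEC alone by 0.97 (adjusted p = 0.0191, 2.88% of genes higher) and beside H838 alone by 1.14 (adjusted p = 0.0247, 0.087% higher). The difference between these rises was -0.17 (adjusted p = 0.637). Without HPAEC 24 h replicate 1 the rise over both was 1.07 and did not pass. That setting leaves 1 array in its group, and few genes of all passed in it.

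TSC22D3 in the same comparison was 8.82 ± 0.03 at 24 h and 8.86 ± 0.16 at 0 h beside HPAEC, and 8.81 ± 0.01 at 24 h and 8.28 ± 0.01 at 0 h beside H838 (log2, SD, n = 2 each). The HPAEC difference of -0.05 had an adjusted p of 0.776, and the H838 difference of 0.49 ± 0.10 (SE) had one of 0.1. The difference between the co-cultures, -0.54 ± 0.14, had an unadjusted p of 0.00662 and an adjusted p of 0.335 in limma, and 0 genes of all tested passed that comparison. NR3C1, FKBP5 and SGK1 had adjusted p-values of 0.124, 0.119 and 0.768.

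Whether the neighbouring cell mattered was tested as HPAEC minus H838 in the model of time, co-culture and chip. From 1 to 15 h co-culture coincides with chip. The value therefore rests mainly on 0, 0.5 and 24 h and is not a plain mean over the times. None of the 5 passed, against 2.02% of all genes, although 2 had an unadjusted p below 0.05. TSC22D3 was 0.44 ± 0.12 higher beside HPAEC, 1.35-fold (95% interval 0.20 to 0.68, adjusted p = 0.0605 in limma). DDIT4 was 0.37 ± 0.13 higher, 1.3-fold (adjusted p = 0.124). TSC22D3 passed in 6 of 27 alternative settings, among them with chip left out (0.34) and without HPAEC 24 h replicate 2 (0.53). DDIT4 passed in 4 of 27, among them with chip left out (0.29). With chip left out 1723 genes of all passed, against 232 with it. FKBP5, NR3C1 and SGK1 were -0.12, -0.10 and -0.10 (adjusted p = 0.355, 0.676 and 0.58), and the median of the 5 was -0.10 against 0.00 over all genes.

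The measured difference for TSC22D3 varied with time. On the brighter probe HPAEC minus H838 was 0.59, 0.67, 0.87, 0.59 and 0.55 at 0, 0.5, 1, 2 and 3 h, and 0.05, 0.13, 0.09, -0.02 and 0.00 at 4, 5, 10, 15 and 24 h. On the second probe it was 0.58, 1.00, 1.07, 0.65 and 0.05 from 0 to 3 h, and 0.46, -0.33, -0.05, 0.51 and 0.30 from 4 to 24 h. Both probes were higher beside HPAEC from 0 to 2 h, also in the unscratched wells, and they parted later. At 24 h the second probe read 8.12 and 7.89 beside HPAEC and 7.61 and 7.80 beside H838, which did not overlap. For DDIT4 it was 0.47, 0.78, 0.75 and 0.49 from 0 to 2 h, -0.05, -0.46 and -0.09 from 3 to 5 h, and 0.25, 0.18 and 0.33 from 10 to 24 h, so 7 of 10 times were higher beside HPAEC. SGK1 was higher beside HPAEC at 1 time of 10, FKBP5 at 2 and NR3C1 at 4.

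Pairs of arrays on the same chip were available at 0, 0.5 and 24 h. On chip 1, HPAEC minus H838 was 0.48 at 0 h and 0.67 at 0.5 h for TSC22D3, and 0.47 and 0.78 for DDIT4. On chip 2 it was 0.69 at 0 h and 0.02 at 24 h for TSC22D3, and 0.46 and 0.30 for DDIT4. The excess of both genes beside HPAEC at 0 h was thus present within each chip. From 1 to 15 h co-culture and chip cannot be told apart at a single time.

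The test of whether a window's change differed between the co-cultures called 0 of the 5 and 0% of all genes in limma. At an unadjusted p below 0.05 it held 0 of the 5 and 530 genes of all. TSC22D3 had an unadjusted p of 0.127, so its difference in the first hours is not shown to depart from the later one. The fall of DDIT4 at 3 to 5 h was -1.18 beside HPAEC (adjusted p = 0.0763) and -0.33 beside H838 (adjusted p = 0.736), a difference of -0.85 ± 0.50 with a 95% interval of -1.89 to 0.18. The model of this test holds 1 mean per co-culture and window, so changes of level inside a window count as spread. That widens its intervals and limits its calls. The interval for DDIT4 holds both no difference and a fall larger by more than 1 log2 unit.

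One probe of SGK1 gave another result than the probe that stands for the gene. Tested over every kept probe, the third SGK1 probe was lower beside HPAEC, 0.717-fold (-0.48 ± 0.11 log2, adjusted p = 0.048 in limma). The others were at -0.10 and -0.13 (adjusted p = 0.628 and 0.38), and 137 of all 20054 kept probes passed. The third probe ranged from 6.33 to 7.41 log2 beside HPAEC, with a median of 7.15, and from 6.94 to 7.54 beside H838, with a median of 7.28, so the co-cultures overlapped. Its same-chip differences were 0.08 and -0.54 on chip 1 and -0.69 and -0.76 on chip 2. Its duplicates beside HPAEC lay far apart, at 7.21 and 6.58 at 0 h and 7.14 and 6.33 at 24 h, each time lower on chip 2. By time, HPAEC minus H838 was above 0 at 4 h (0.06) and 10 h (0.115) and below 0 at the others. The second probe of TSC22D3 was 0.46 ± 0.15 higher beside HPAEC (adjusted p = 0.151).

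**Figure D4:**
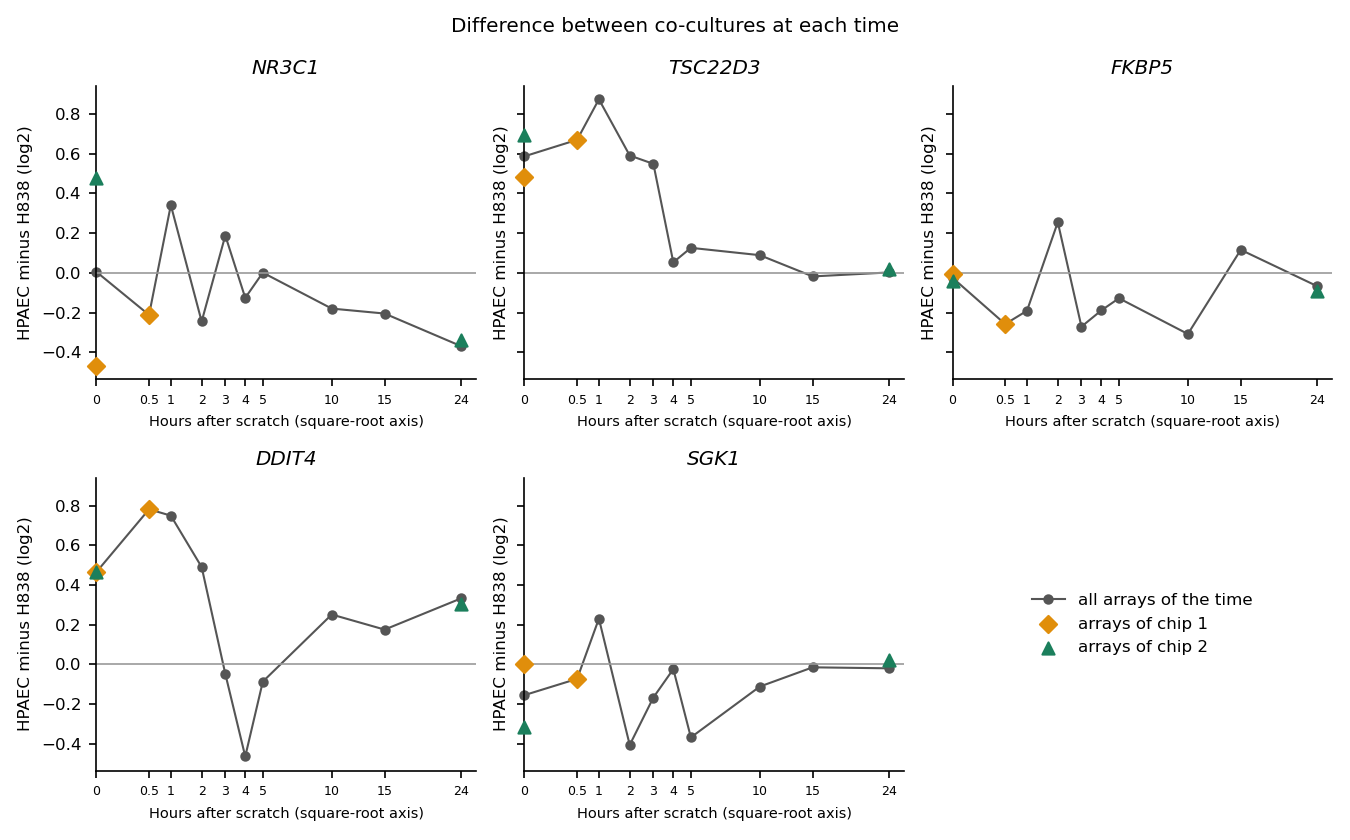
HPAEC minus H838 co-culture in log2 units at each of the 10 times for the 5 measured genes, as a grey line over all arrays, with orange diamonds for pairs of arrays on chip 1 and green triangles for pairs on chip 2. The brighter probe of TSC22D3 lies between 0.55 and 0.87 from 0 to 3 h and between -0.02 and 0.13 from 4 h on.

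The measured genes did not share 1 course. Over the 20 co-culture and time means, which share arrays and chips, the closest pair in the same direction was NR3C1 with FKBP5 (r = 0.42), followed by TSC22D3 with DDIT4 (0.39). DDIT4 with SGK1 (-0.59) and TSC22D3 with FKBP5 (-0.50) ran against each other, and the other 6 pairs lay between -0.28 and 0.18. Over the same points, the genes most like DDIT4 among all tested were ANKRD37 (r = 0.93), SIRT4, a mitochondrial sirtuin (0.87), and HILPDA, a lipid droplet protein raised by hypoxia (0.87). The choice by likeness fixes much of their course, so their changes are given as a description. ANKRD37, detected on 19 arrays, SIRT4 and HILPDA had log2 changes of -2.27, -0.96 and -0.87 at 3 to 5 h, and of 0.22, -0.10 and -0.16 at 10 to 24 h.

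Those most like TSC22D3 were AARS1, the alanine-tRNA ligase (r = 0.83), DDIT3, a stress-response transcription factor (0.82), and AKNA (0.82). Their log2 changes at 10 to 24 h, again a description, were -0.58, -0.53 and -0.71. The nearest to FKBP5 were ARMC7, FA2H and ECH1 (r = 0.85 each), the nearest to NR3C1 were ADH5 (0.84), ALDH5A1 (0.77) and TM2D3 (0.73), and the nearest to SGK1 were UEVLD (0.78), FAM178B (0.77, detected on 4 arrays) and HEY1 (0.76). None of the other measured genes of the steroid set was among the 3 nearest to any of them.

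Other genes known to be raised by glucocorticoids did not move as 1 group. Of 40 such genes, 23 were detected on all 24 arrays and 29 were tested. At 0.5 to 2 h, DUSP1, a phosphatase that switches off MAP kinases, was the 1 gene of the 29 called (higher, 0.61 ± 0.09, adjusted p = 0.00343 in limma; 0.4% of all genes were higher). It did not pass under median scaling (adjusted p = 0.208) or without the 1 h arrays (0.0653), and 3 genes of the list passed with normexp, with the authors' values or without the 0.5 h arrays. At 3 to 5 h 8 rose and 1 fell, against 8% of all genes higher and 7.28% lower, while under median scaling 3 rose and 1 fell. The largest were MT1X, a metallothionein (1.54 ± 0.15, adjusted p = 6.46e-06), RHOB, a small GTPase (0.58), and FOXO1, a transcription factor (0.48), all higher, and CDKN1C, a cell-cycle inhibitor, which fell by 0.54. At 10 to 24 h 3 rose and 2 fell, against 7.93% of all genes higher and 7.56% lower. MT1X (1.03) and FOXO1 (0.41) were again above 0 h, by less than at 3 to 5 h. CDKN1C and the lipid enzyme LPIN1 were below 0 h by 0.69 and 0.53. The list's median was 0.06, 0.08 and -0.03 in the 3 windows against -0.01, -0.01 and 0.01 over all genes, and -0.04, -0.01 and 0.02 under median scaling, against -0.09, -0.07 and 0.06 over all genes. Under both scalings it lay above the median of all genes in the first 2 windows and below it in the last. Beside HPAEC against H838, 0 of the 29 passed, against 2.02% of all genes, with a median of 0.07.

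**Figure D5:**
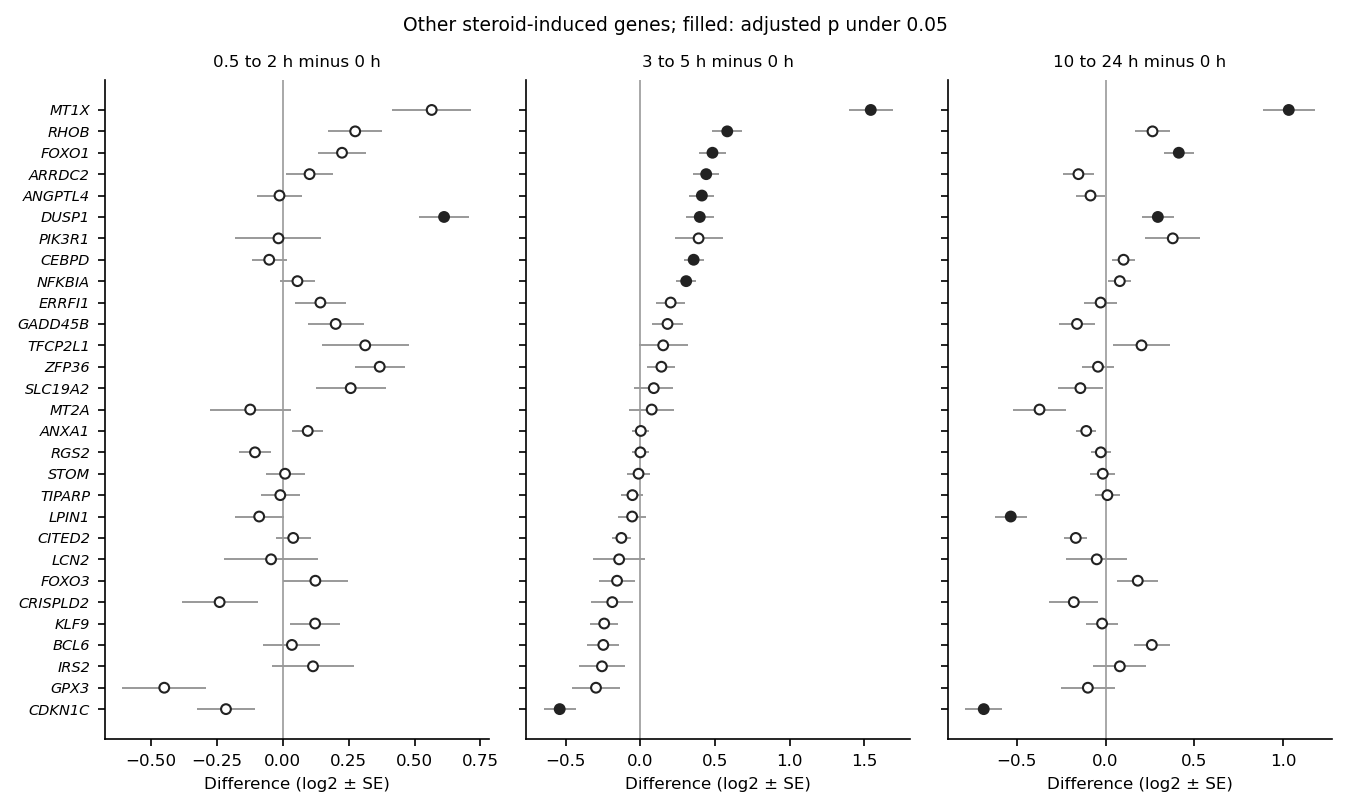
Log2 change against 0 h, with SE, of the 29 tested genes known to be raised by glucocorticoids, in the 3 windows, with filled points where the limma adjusted p is below 0.05. MT1X is the highest at 3 to 5 h (1.54), and CDKN1C is lower at 3 to 5 h (-0.54) and 10 to 24 h (-0.69).

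Genes known to be repressed by glucocorticoids were mostly dim, and 4 of 12 were tested. Of the 4, 1 was called at 3 to 5 h, where 8% of all genes were higher and 7.28% lower. It was the chemokine CXCL2, which rose by 0.74 ± 0.12 (adjusted p = 0.000666 in limma). At 10 to 24 h, where 7.93% were higher and 7.56% lower, the 1 called was the collagenase MMP1. It fell by 0.80 ± 0.12 (adjusted p = 0.000435 in limma). Of 18 receptor chaperones, cofactors and steroid enzymes, 10 were tested. In each of these windows 2 of the 10 were called, against the same shares of all genes. FKBP4, the co-chaperone that competes with FKBP5 for the receptor complex, fell by 0.35 ± 0.08 at 3 to 5 h (adjusted p = 0.00734), a call lost without HPAEC 0 h replicate 2 (adjusted p = 0.052). NRIP1, a receptor corepressor, rose at 3 to 5 h (0.31, adjusted p = 0.0445) and at 10 to 24 h (0.41, adjusted p = 0.00943), and HSPA8, a chaperone, rose at 10 to 24 h (0.38, adjusted p = 0.00087). The call of NRIP1 at 3 to 5 h held in 11 of 27 alternative settings and not under median scaling (adjusted p = 0.334). HSD11B1 and HSD11B2, the enzymes that activate and inactivate cortisol, were detected on 0 arrays.

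Among 13 relatives of the 7 genes, 9 were tested and 0 passed at 3 to 5 h, against 8% of all genes higher and 7.28% lower. At 10 to 24 h, where 7.93% of all genes were higher and 7.56% lower, the clock genes PER2 and PER3, the relatives of the undetected PER1, fell by 0.69 ± 0.09 (adjusted p = 0.000139 in limma) and 0.52 ± 0.10 (adjusted p = 0.00301). TSC22D2, a relative of TSC22D3, rose by 0.26 ± 0.08 (adjusted p = 0.0429). The call of TSC22D2 held in 12 of 27 alternative settings and that of PER3 in 23 of 27, and neither held under median scaling (adjusted p = 0.135 and 0.0617) or without the 15 h arrays (0.106 and 0.0984). Neither the repressed genes, the receptor's partners nor the relatives (4, 10 and 9 tested) held a gene that passed between the co-cultures, against 2.02% of all genes. With normexp 1 repressed gene was higher and 1 partner lower beside HPAEC, where 353 genes of all passed. With the authors' values 1 partner was lower, where 366 passed.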

How the data were processed

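The authors deposited 1 table of raw bead intensity and a detection p-value per probe for 24 Illumina HT-12 arrays, and a table of their own normalized intensity, of unstated scaling (column medians 116.46 to 116.55). From the deposited raw intensity and the deposited detection p-value, background was corrected with limma 3.58.1 (nec, offset 16, with controls inferred from detection) in R 4.3.3, and log2 intensity was quantile normalized. Probes with a detection p-value below 0.01 on at least 2 arrays were kept (20054 of 47286). Genes came from the platform annotation: 30080 probes had 1 symbol, 8 several and 17198 none listed. A gene was read from its brightest kept probe by mean (11494 genes).

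The model held time, co-culture and chip (12 residual degrees of freedom). Another model held a mean per co-culture and window (15), and another the 8 arrays of 0 and 24 h (3). P-values are limma's (lmFit, eBayes, both sides), Benjamini-Hochberg adjusted over all genes tested, with a threshold of 0.05. In a test on simulated data of 11494 genes, 200 of them changed, 61% of changes of 0.5 log2 and 98% of changes of 1 log2 were recovered in the late window. The simulated data held independent noise and no co-culture or chip effect. The real late window called 1780 genes, so these rates need not hold for the real arrays. The 24 arrays limit the precision, and single times rest on 1 array per co-culture. Named were the 7 genes with all probes, the 3 genes most correlated with each tested one, and up to 4 called genes per list and window with the largest change. The genes and lists were chosen with earlier results of these data known. Correlations used 20 means without chip correction.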

Additional observations from a re-analysis of the deposited data

How the results depend on the processing

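Alternatives to background correction, normalization, detection filter, probe choice, the chip term and the arrays used were run for the tests of time, window, co-culture and 24 h against 0 h over both co-cultures, not for single times or for 24 h within 1 co-culture. Of the 7 genes, the time test called 3, against 4 with the authors' normalized values, 1 under median scaling and 1 without the 24 h arrays. The co-culture test called 0, where 232 genes of all passed. It called 2 with normexp without detection p-values (353 genes of all) and 2 with the authors' normalized values (366). With chip left out it called 2 (1723 genes of all), and with chip as a random block 2 (1949). With detection required on all 24 arrays it called 1 (423 genes of all), and leaving out 1 replicate gave 0 to 1. At 3 to 5 h 1 was called, against 2 with normexp, 2 with detection on all 24 arrays, 2 with no filter (the second being PER1, at -0.267 on a probe below background), 2 without the 2 h arrays and 0 on chip 1 or chip 2 alone, and leaving out 1 replicate gave 1 to 2. At 10 to 24 h 2 were called, against 3 with the authors' values, 0 on either chip alone, and 1 under median scaling, detection on all 24 arrays, no filter, every kept probe or without the 0.5, 4, 5, 10 or 15 h arrays, and leaving out 1 replicate gave 1 to 2. For 24 h against 0 h on duplicates 1 was called, against 2 under median scaling, the authors' values or detection on all 24 arrays, and leaving out 1 replicate gave 0 to 1. At 0.5 to 2 h and in the test between co-cultures' changes 0 were called under all 27 and 25 alternatives.

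DDIT4 stayed past the threshold for time in 25 of 25 alternatives and in 25 of 27 for each of 3 to 5 h and 10 to 24 h. The exceptions were the single chips (-1.03 and -0.39 at 3 to 5 h, 0.78 and 1.00 at 10 to 24 h for chips 1 and 2), which have fewer arrays. On them 0 genes of all passed at 3 to 5 h, and 4 on chip 1 and 0 on chip 2 at 10 to 24 h. TSC22D3 passed for time in 22 of 25 alternatives (not under median scaling, adjusted p = 0.081) and FKBP5 in 19 of 25, while NR3C1 at 10 to 24 h passed in 13 of 26. TSC22D3 between co-cultures passed in 6 of 27 (adjusted p 0.00879 to 0.787) and DDIT4 in 4 of 27 (0.0158 to 0.787).

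Signs turned only for values past the threshold in neither setting. At 0.5 to 2 h, NR3C1 was -0.008 and SGK1 -0.059 under median scaling, where the median of all genes was -0.094 against -0.013, and both stayed above it. NR3C1 was -0.031, -0.045 and -0.069 without HPAEC 0 h replicate 1, H838 0 h replicate 2 or the 1 h arrays. SGK1 was -0.029, -0.08 and -0.036 without HPAEC 0 h replicate 2, without the 2 h arrays or on chip 1 alone. DDIT4 was -0.040 without the 0.5 h arrays and -0.084 on chip 2 alone, where TSC22D3 was -0.041. Later, SGK1 was 0.031 at 10 to 24 h under median scaling, where the median of all genes was 0.064, and -0.001 at 3 to 5 h on chip 1 alone, and TSC22D3 was 0.052 at 10 to 24 h on chip 2 alone. Between co-cultures, NR3C1 was 0.005 without H838 0 h replicate 1 and 0.051 on chip 2 alone, and SGK1 was 0.020 on chip 1 alone. On duplicates, SGK1 was 0.003 without H838 0 h replicate 2 and 0.046 without H838 24 h replicate 2. With each replicate left out in turn, the highest value was 0.186 for NR3C1 and 0.059 for SGK1 at 0.5 to 2 h, and the lowest was -0.316 for NR3C1 between co-cultures and -0.168 for SGK1 on duplicates. The causes of the other reversals were not tested.

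Over all genes, calls were 2629 for time (1140 to 3272 over the alternatives), 232 for co-culture (0 to 1949), 53, 1756 and 1780 in the 3 windows (0 to 91, 0 to 1986 and 0 to 2161) and 1093 on duplicates (3 to 1991). Median scaling gave 35.2% higher among calls at 3 to 5 h, 72.9% at 10 to 24 h and 80% between co-cultures, against 52.3%, 51.2% and 56%. It called 3 steroid-raised genes higher at 3 to 5 h, against 8. On chip 1 or chip 2 alone, with fewer arrays and at most 4 genes of all called in a window, none of the calls in the 4 gene lists passed. With the replicate block in place of chip, DDIT4 rose by 1.04 at 24 h against 0 h on duplicates (adjusted p = 0.00505 in limma) and 1 gene of the 5 was again called. Deviations of same-numbered arrays correlated weakly, between -0.05 and 0.13. Noise of single arrays could hide a shared origin, so whether the numbers pair the samples is not settled. Signal near background limits NR3C1, and PER1 and ZBTB16 were not measurable.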
